A study of Mus musculus with 12 samples.

Results

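How β-estradiol (E2) changed the transcriptome of G1E-ER4 cells held under Thiamet-G (TMG) was examined with RNA sequencing libraries. Libraries were chosen by their sample titles, 3 labelled TMG and 3 labelled TMG_E2, which makes 6 of the 12 libraries of the series. Genes were chosen by expression: 8174 of the 32699 genes in the files had a CPM (counts scaled to a fixed library total) over 10 in at least 2 of these 6 libraries and were tested. G1E-ER4 is a mouse erythroid progenitor line that makes a fusion of the factor GATA-1 with an estrogen receptor part (GATA-1ER), which E2 switches on. TMG inhibits OGA, the enzyme that takes the sugar O-GlcNAc off proteins. Cells of the TMG group were given 10 µM TMG for 30 h, and cells of the TMG_E2 group were given 10 µM TMG with 1 µM E2 for 30 h. Both groups carried GATA-1ER and grew with erythropoietin, stem cell factor and puromycin. The remaining groups, used only to ask whether the response differed without TMG, were untreated cells (Ctrl) and cells given 1 µM E2 alone for 30 h, with 3 libraries each.

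All libraries came from 1 cell line, and the groups hold no cells that lack GATA-1ER and received E2, so responses to E2 that do not pass through the fusion cannot be told apart from those that do. The sources used here do not say that replicates were separate cultures, and the p-values below therefore rest on the spread between libraries, part or all of which may be technical. Each library was made from a fixed mass of RNA of a bulk culture. Fewer cells of a type and less RNA per cell cannot be told apart in such samples. In the labels the cell type is given as embryonic stem cell. Of 8 embryonic stem cell markers, 7 had no counts in the TMG libraries and 6 had none in the TMG_E2 libraries, and their summed level was at most 0.171 CPM. The 10 erythroid markers together held 1975 to 2075 CPM in the TMG libraries and 40615 to 45037 CPM in the TMG_E2 libraries. The largest part of the TMG sums was Tfrc, at 978, 1055 and 989 CPM scaled by library size. On the same scale the TMG_E2 sums were mainly Hbb-bs (19816, 20336 and 20467 CPM) and Hba-a2 (13718, 17115 and 17754 CPM).

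As background, GATA-1 is the master regulator of red cell development. When it becomes active in a progenitor it displaces GATA-2 at many sites, turns on the genes of hemoglobin, heme and the red cell membrane together with KLF1 and other partners, and turns off progenitor genes such as Kit and Myb. O-GlcNAc is a single sugar that the enzyme OGT attaches to serines and threonines of nuclear and cytosolic proteins and that OGA removes, and GATA-1 partner complexes are among the proteins that carry it.

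The libraries held 17589370 to 23178705 counts, so that 3 counts in a library correspond to 0.129 to 0.171 CPM. On the first principal component, which held 95.7% of the variance, the TMG libraries stood apart from the TMG_E2 libraries. Replicates varied more with E2: the median SD of log2 CPM over the genes tested was 0.0551 in TMG and 0.0782 in TMG_E2, and replicates 1 and 3 were the TMG_E2 pair that differed most. Below, values are CPM scaled by the TMM method and listed in replicate order, changes are log2 fold changes of TMG_E2 over TMG ± SE (n = 3 libraries a group), and adjusted p-values are those of edgeR's quasi-likelihood test with Benjamini-Hochberg adjustment over all genes tested.

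Most of the genes tested changed. E2 raised 3297 genes (40.3% of the genes tested) and lowered 3268 (40.0%), while 1609 genes (19.7%) were not called. Changes of 2-fold or more were called for 737 higher genes (9.02%) and 756 lower genes (9.25%). The median called gene changed 1.46-fold. Large changes were more often rises than falls: at 8-fold or more there were 71 higher and 57 lower genes, and at 32-fold or more 19 higher and 7 lower. In 3355 genes (41.0%) every TMG_E2 library lay above every TMG library, and in 3339 (40.8%) every TMG_E2 library lay below. Of the genes tested, 237 passed the expression filter only through TMG_E2 libraries and 446 only through TMG libraries, so their direction was largely set by the filter. Such genes also count in the shares of the lists below. The share of a list that was called is read below against these backgrounds, since a list with 40% of its genes in each direction does what all genes did. With library size in place of TMM as the scaling, the median log2 change of all genes tested moved from -0.00062 to -0.105, and 2770 genes were higher and 3827 lower. Changes are reported relative to the TMM scaling, and 0 genes called under both scalings changed sign.

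**Figure D1:**
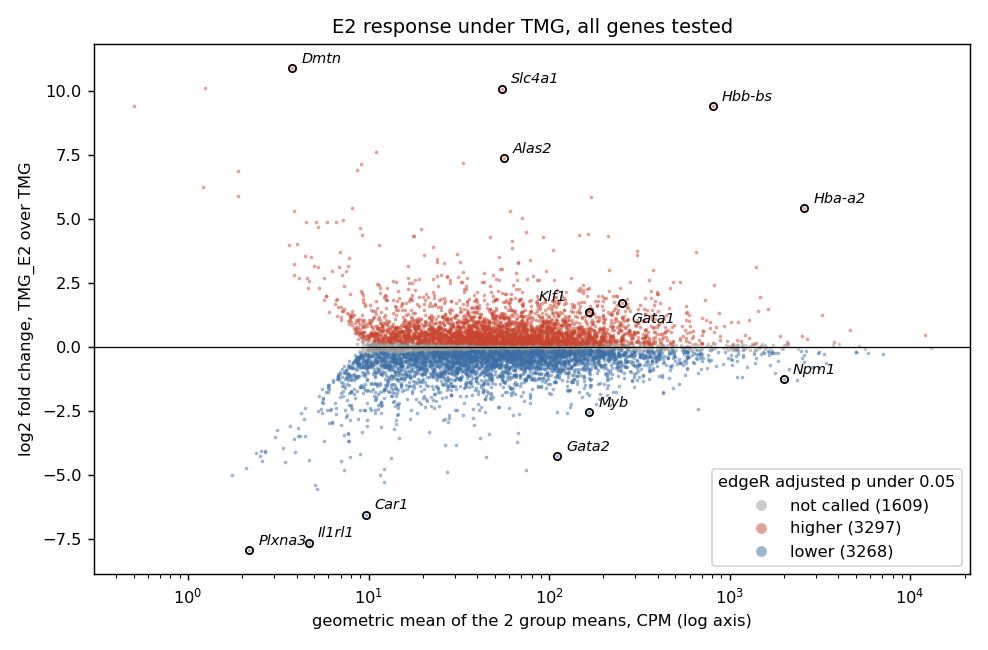
Log2 fold change of TMG_E2 over TMG (vertical axis) against the geometric mean of both group means in CPM (horizontal log axis) for the 8174 genes tested, with called genes in red (3297 higher) and blue (3268 lower) and uncalled genes in grey. Dmtn, Slc4a1 and Hbb-bs lie at the top, Plxna3 and Il1rl1 at the bottom, and the wedge at low levels on the left comes from genes that pass the expression filter in only 1 of the groups.

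The GATA switch was seen in every library. Gata1 (chromosome X, 7959260 to 7976663) went from 147, 134 and 137 CPM in the TMG libraries to 444, 479 and 457 CPM in the TMG_E2 libraries, a rise of 1.73 ± 0.05 (adjusted p = 7.24e-12). Its values may include reads of the introduced fusion. The gene counts do not separate these from other Gata1 reads, so they do not show whether the resident gene rose. Gata2, the progenitor GATA factor (chromosome 6, 88193891 to 88207032), went the other way, from 474, 471 and 505 CPM to 23.2, 26.2 and 27.1 CPM (-4.25 ± 0.06, adjusted p = 2.32e-14). The groups overlapped in neither gene. Klf1, the erythroid Krüppel-like factor (chromosome 8, 84901982 to 84905291), rose from 96.1, 105 and 108 CPM to 247, 274 and 283 CPM (1.38 ± 0.06, adjusted p = 2.36e-10). Zfpm1, which encodes the GATA-1 cofactor FOG-1, rose from 215, 231 and 231 CPM to 509, 702 and 629 CPM (1.44 ± 0.09). The 3 TMG_E2 values of Zfpm1 were the more scattered, but the lowest of them was more than the highest TMG value.

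**Figure D2:**
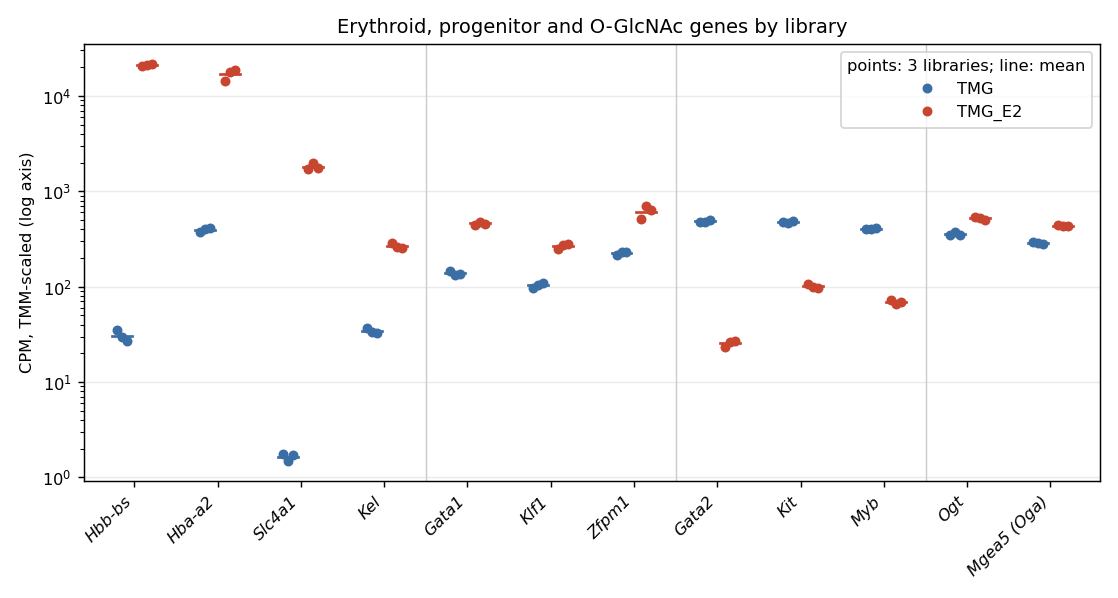
CPM (vertical log axis) in each of the 3 TMG (blue) and 3 TMG_E2 (red) libraries for erythroid effector genes, erythroid factors, progenitor genes and the O-GlcNAc cycling enzymes, with lines at the group means. The groups are separate for each of the 12 genes, with Slc4a1 near 1.64 CPM in TMG and 1817 CPM in TMG_E2.

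Among the 23 tested genes of the erythroid transcription factor list, 17 rose (73.9%) and 3 fell, against 40.3% and 40.0% of all genes, with a median of 0.69. Mafk, the small partner of NF-E2, rose from 34.3, 32.1 and 34.2 CPM to 142, 151 and 152 CPM (2.15 ± 0.05), and Nfe2, the large subunit, rose by 1.22 ± 0.04. Lmo2, the bridging protein of the TAL1 complex, rose from 59.6, 60.5 and 58.8 CPM to 203, 206 and 202 CPM (1.77 ± 0.04). Smaller changes were seen for other members of that complex: Cbfa2t3, a corepressor, rose by 0.57 ± 0.07, Ldb1 by 0.25 ± 0.06 and Tal1 by 0.17 ± 0.05 (adjusted p = 0.0102), and the call of Tal1 ended without TMG replicate 3 (adjusted p = 0.0685) and with library size scaling (0.316). Foxo3, a factor for autophagy and antioxidant genes, rose by 1.74 ± 0.09, and Klf13 and Klf3, relatives of Klf1, by 1.94 ± 0.06 and 1.18 ± 0.05. The genes that fell were Lyl1, a close relative of Tal1 that serves in earlier progenitors (-2.64 ± 0.06), Tcf3, which encodes the E2A partner of TAL1 (-1.06 ± 0.07), and E2f2 (-0.50 ± 0.07). Bcl11a, a repressor of embryonic globin genes, stood at 139 ± 4.52 CPM (SD) without and 132 ± 0.856 CPM with E2 (-0.08 ± 0.04, adjusted p = 0.11), although it was called lower with library size scaling (adjusted p = 0.00211) and in the fit of all 12 libraries (0.0441). Gfi1b was at -0.09 ± 0.05 (adjusted p = 0.125) and was called lower with library size scaling (0.00226) and without TMG_E2 replicate 3 (0.0174).

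Of the 19 progenitor genes, 7 were expressed enough to be tested, and 6 of these fell (85.7%) with a list median of -2.24. Kit, the receptor for stem cell factor, went from 471, 468 and 485 CPM to 107, 99 and 95.9 CPM (-2.24 ± 0.05, adjusted p = 5.77e-13). Myb, a factor that keeps progenitors dividing, went from 400.0, 401 and 408 CPM to 72.9, 66.2 and 68.7 CPM (-2.54 ± 0.05). Myc, which drives growth and ribosome production, fell from 327, 273 and 292 CPM to 80.3, 76.5 and 75.5 CPM (-1.94 ± 0.06). In each of these genes the lowest TMG library was more than 3 times the highest TMG_E2 library. Hhex (-2.81), which passed the filter only through TMG libraries, and Etv6 (-0.88) fell too. Spi1, the gene of the myeloid factor PU.1, which GATA-1 is known to oppose, did not follow: it stood at 28, 26.7 and 28.9 CPM without and 29.5, 33.9 and 34.7 CPM with E2 (0.23 ± 0.07, adjusted p = 0.0116), a call that ended without TMG replicate 2 (adjusted p = 0.0618) and with library size scaling (0.125).

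Globin genes were far higher with E2. Of the 9 globin genes in the files, 5 were tested and 5 rose, with a median of 5.42, but Hbb-b2, Hbb-bh1 and Hbq1b passed the filter only through TMG_E2 libraries. Hbb-bs, which encodes adult beta globin (chromosome 7, 103826523 to 103827928), rose from 35.1, 30 and 27.1 CPM to 20492, 21180 and 21680 CPM (9.42 ± 0.11, adjusted p = 2.39e-15). Hba-a2, which encodes adult alpha globin (chromosome 11, 32296492 to 32297310), rose from 372, 404 and 413 CPM to 14186, 17826 and 18807 CPM (5.42 ± 0.11, adjusted p = 2.05e-13). The groups were far apart in both genes. On the length-corrected TPM scale (transcripts scaled to a fixed total), Hba-a2 stood at 1558 ± 70.7 (SD, n = 3) and Hbb-bs at 102 ± 14.3 TPM without E2, and at 58235 ± 6386 and 61172 ± 1051 TPM with it. The alpha gene was the higher of the pair in every TMG library, and in TMG_E2 replicates 2 and 3 but not 1, where the group means differed by less than the SD of Hba-a2. TMG_E2 replicate 1 had the lowest Hba-a2 value, 50862 TPM against 61988 and 61856 TPM in replicates 2 and 3, while its Hbb-bs value of 61665 TPM lay between theirs, 61886 and 59966 TPM. Hbb-bh1, an embryonic beta-like gene, reached 21.8, 20.2 and 20.7 CPM from 0.0942, 0.203 and 0.222 CPM, which is near the level of 3 counts. Globin genes resemble each other in sequence, and how the reads were divided among them is uncertain. All 9 globin genes together took 0.162 to 0.172% of TPM in the TMG libraries and 11.3 to 12.4% in the TMG_E2 libraries, where the 85 genes of cytosolic ribosomal proteins took 23.2 to 24.1%.

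Genes of heme synthesis rose, with 1 exception. Of 15 genes for the pathway and its carriers, all tested, 14 rose by 2-fold or more (93.3%, against 9.02% of all genes) and 1 fell, with a median of 1.83. Alas2, the erythroid enzyme for the first step (chromosome X, 150547417 to 150570622), rose from 4.19, 4.97 and 3.88 CPM to 714, 719 and 741 CPM (7.38 ± 0.07, adjusted p = 1.51e-15). It is the 1 gene of the 15 that passed the filter only through TMG_E2 libraries, which largely set its direction. Alas1, the form of that enzyme used in other tissues, was the gene that fell, from 16.5, 17 and 18.8 CPM to 10.4, 11.5 and 12.5 CPM (-0.61 ± 0.09, adjusted p = 5.11e-05). In TPM, Alas1 was the higher of the pair without E2 (10.6 against 3.71 TPM) and Alas2 with E2 (542 against 6.08 TPM). Alad, the second enzyme, rose from 87.6, 85.2 and 91.8 CPM to 1009, 1094 and 1131 CPM (3.61 ± 0.06). Later enzymes of the pathway rose less, Uros by 2.17 ± 0.06, Urod by 1.42 ± 0.04, Cpox by 1.42 ± 0.05, Ppox by 1.47 ± 0.05 and Fech, which inserts the iron, by 1.62 ± 0.04. Among the carriers, Abcb10, a mitochondrial transporter needed for heme synthesis, rose from 81.9, 86.2 and 83.1 CPM to 1145, 1190 and 1069 CPM (3.76 ± 0.06). Tmem14c, a porphyrinogen carrier, rose from 265 ± 7.6 to 1855 ± 18.2 TPM (SD, n = 3) and Slc25a38, the mitochondrial glycine carrier, by 1.83 ± 0.06. Hebp1, a heme binding protein, rose from 11.6, 10.5 and 9.32 CPM to 213, 203 and 211 CPM (4.31 ± 0.07), whereas Slc48a1, which moves heme out of endosomes, was called lower.

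**Figure D3:**
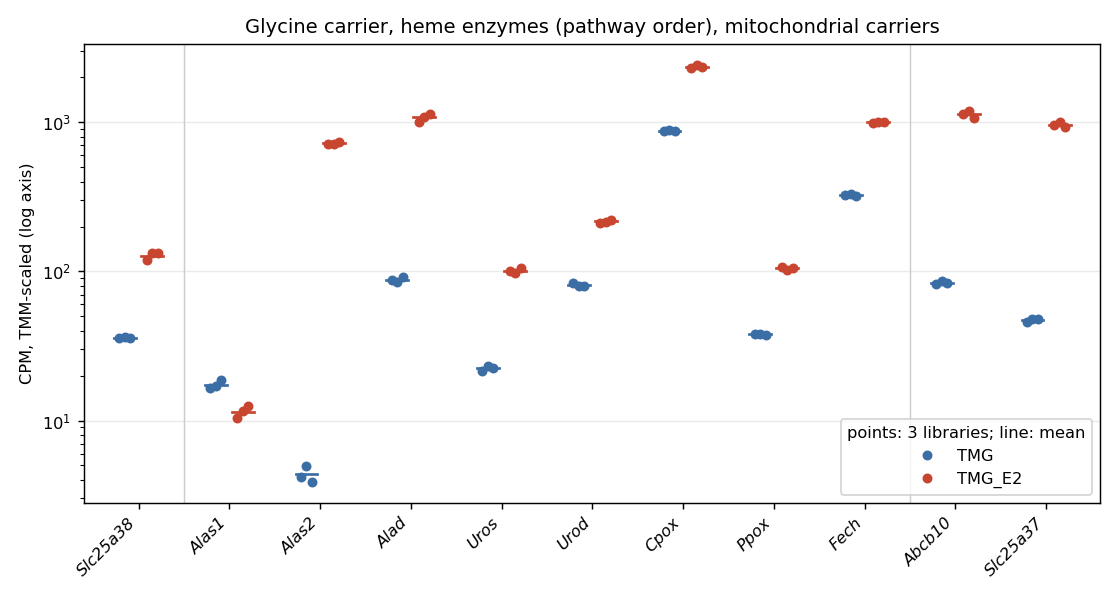
CPM (vertical log axis) in each of the 3 TMG (blue) and 3 TMG_E2 (red) libraries for the glycine carrier Slc25a38, heme enzymes in pathway order from Alas1 and Alas2 to Fech, and the mitochondrial transporters Abcb10 and Slc25a37, with lines at the group means. Alas1 is the only gene shown whose red points lie below its blue points, and Alas2 has the widest gap, 4.35 against 724 CPM.

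Promoter sequences are shown for 3 strongly induced genes, to set letters beside their values. They were picked as called genes that changed 16-fold or more, carry AGATAA, a core GATA factor motif, in the 250 bases before the start, and have that start at the outer edge of the annotated gene. Of 9 genes that met the former conditions, 6 had a start inside the gene region and are not shown. The sequences are from RefSeq on GRCm38.p6 and read 5′ to 3′ along the gene, with AGATAA or its reverse complement TTATCT in capitals. Hbb-bs covers chr7:103827929-103828178 (minus strand), Alas2 chrX:150547167-150547416 (plus strand) and Jun chr4:95052223-95052472 (minus strand).
Hbb-bs: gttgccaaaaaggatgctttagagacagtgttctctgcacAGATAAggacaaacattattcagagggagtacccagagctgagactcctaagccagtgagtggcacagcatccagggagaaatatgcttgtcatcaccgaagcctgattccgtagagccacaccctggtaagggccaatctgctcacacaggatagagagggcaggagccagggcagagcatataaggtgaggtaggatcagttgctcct
Alas2: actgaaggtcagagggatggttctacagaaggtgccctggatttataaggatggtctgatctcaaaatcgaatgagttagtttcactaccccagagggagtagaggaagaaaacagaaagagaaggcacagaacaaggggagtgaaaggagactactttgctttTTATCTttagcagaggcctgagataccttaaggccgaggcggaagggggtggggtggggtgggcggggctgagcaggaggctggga
Jun: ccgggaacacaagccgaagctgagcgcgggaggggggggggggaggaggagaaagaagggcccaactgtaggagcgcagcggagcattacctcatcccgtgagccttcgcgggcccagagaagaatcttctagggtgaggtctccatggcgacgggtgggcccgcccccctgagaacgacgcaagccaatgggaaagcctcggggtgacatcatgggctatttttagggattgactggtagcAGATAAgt
The match begins 210 bases before the start in Hbb-bs, 86 bases before it in Alas2 and 8 bases before it in Jun. Jun, which encodes an AP-1 factor and was picked outside the rule for named genes, rose from 0.848, 1.27 and 0.943 CPM to 24.2, 30.5 and 25.3 CPM (4.70 ± 0.16) and passed the filter only through TMG_E2 libraries. The same windows hold 1, 4 and 9 matches of CCNCNCCCN, the motif bound by KLF1, where N is any base.

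Motif shares were counted on both strands over all promoters of the table, 250 bases each, with overlapping matches counted separately and both motifs counted independently of each other. Of the genes tested, 6578 matched the table by symbol. AGATAA was in 10.3% of all 27025 promoters, in 5.26% of the genes tested, in 7.29% of those called higher by 2-fold or more (42 of 576 matched) and in 5.46% of those called lower by 2-fold or more (33 of 604). Among genes that changed 16-fold or more it was in 5 of 26 higher genes (19.2%) and 4 of 21 lower genes (19%). CCNCNCCCN was in 45.4% of all promoters and 64.4% of the genes tested, in 73.4% of the higher and 69.4% of the lower genes at 2-fold, and in 22 of 26 higher and 12 of 21 lower genes at 16-fold. These are descriptions of letters in short windows, and a match is not a bound site.

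Iron handling did not move as a block: 10 of 18 tested genes rose (55.6%) and 7 fell (38.9%), with a median of 0.22. The genes that feed iron to the mitochondrion were among those that rose. Slc25a37, the mitoferrin that carries iron into the organelle, went from 45.7, 47.7 and 48 CPM to 959.9, 1004 and 931 CPM (4.36 ± 0.06, adjusted p = 4.48e-15). Tfrc, the main transferrin receptor, rose from 951, 1023 and 965 CPM to 2813, 2764 and 2644 CPM (1.48 ± 0.05). Tfr2, the second transferrin receptor, fell from 194, 199 and 199 CPM to 11.1, 8.07 and 11.3 CPM (-4.28 ± 0.08). Both receptors had separate groups, in opposite directions. The ferritin chains also parted, with the light chain gene Ftl1 higher (1.25 ± 0.08) and the heavy chain gene Fth1 lower (-0.69 ± 0.07). Ncoa4, the receptor for ferritin breakdown, rose by 1.81 ± 0.05, Glrx5, for iron-sulfur clusters, by 1.28 ± 0.07 and Aco1, the iron-sensing aconitase, by 1.28 ± 0.04. Slc25a28, the mitoferrin of other tissues (-0.72), and the iron importer Slc11a2 (-0.73) fell. Smaller calls in this list depended on single libraries: Ireb2 (0.15 ± 0.05) and Pcbp1 (-0.17 ± 0.06) had adjusted p = 0.0203 and 0.0162, and values up to 0.113 and 0.0599 when 1 library was left out. Ireb2 also lost its call with library size scaling (0.459).

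Most genes of the spectrin-based membrane skeleton rose. Of 16 tested genes, 13 rose (81.2%) and 3 fell (18.8%), with a median of 1.80. Slc4a1, the band 3 anion exchanger that anchors the skeleton (chromosome 11, 102348820 to 102365281), rose from 1.74, 1.47 and 1.72 CPM to 1714, 1989 and 1747 CPM (10.10 ± 0.11, adjusted p = 1.51e-15). Dmtn, which encodes dematin, an actin bundler, had the highest fitted change of all genes, from 0.141, 0.0507 and 0.0555 CPM to 157, 179.5 and 187 CPM (10.90 ± 0.17). Both genes, and Tmod1, passed the filter only through TMG_E2 libraries, and Dmtn without E2 lay near or below the level of 3 counts. Sptb, the red cell beta spectrin gene, was already present and rose further, from 478, 467 and 473 CPM to 4144, 4436 and 3883 CPM (3.14 ± 0.06). Ank1, the ankyrin that links spectrin to band 3, rose by 2.61 ± 0.06, and the adducins Add1, Add2 and Add3 rose by 2.01 ± 0.05, 1.46 ± 0.05 and 1.59 ± 0.04. The genes that fell were the nonerythroid spectrins Sptan1, from 10.6, 11.8 and 11 CPM to 0.669, 0.267 and 0.238 CPM (-4.73 ± 0.21), and Sptbn1 (-1.04 ± 0.09), and the tropomyosin Tpm3 (-0.65 ± 0.05). Sptan1 passed the filter only through TMG libraries.

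Red cell surface genes rose in 12 of 14 cases (85.7%) and fell in 1, with a median of 1.43. Of those that rose, Icam4 passed the filter only through TMG_E2 libraries, which largely set its direction. Kel, which encodes a blood group protein, rose from 36.7, 33.2 and 32.6 CPM to 285, 262 and 256 CPM (2.97 ± 0.06). Tspan33 rose by 2.69 ± 0.05, Gypc by 2.20 ± 0.05 and the Rh family genes Rhd and Rhag by 1.86 ± 0.09 and 1.41 ± 0.05. Cd44, an adhesion receptor known to decline as red cell precursors mature, went from 87.1, 89.2 and 90.6 CPM to 26.1, 24.3 and 26 CPM (-1.80 ± 0.05). Slc2a1, a glucose carrier, was at 115 ± 11.6 CPM (SD) without and 137 ± 26.6 CPM with E2 (adjusted p = 0.06), with overlapping groups, but was called higher with the replicate number as a block (0.24, adjusted p = 0.00012), with no filter (0.00458) and without TMG_E2 replicate 1 (0.000132).

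The summed markers of mast cells, granulocytes, lymphocytes and megakaryocytes were lower with E2, though not each marker was. Summed over a list and scaled by library size, 10 mast cell and basophil markers went from 79.5 to 95.7 CPM in the TMG libraries to 0.41 to 0.618 CPM in the TMG_E2 libraries, with 4 and 5 of them at 0. The sum of 12 granulocyte and macrophage markers went from 22.5 to 25.1 CPM to 3.84 to 4.51 CPM, that of 9 lymphoid markers from 12.3 to 12.6 CPM to 0.562 to 0.863 CPM, and that of 10 megakaryocyte markers from 81.8 to 96.1 CPM to 38.9 to 44.2 CPM. Each of the 4 sums was carried mainly by 1 gene: Il1rl1, Coro1a, Ptprcap and Nbeal2. Il1rl1, the interleukin-33 receptor of mast cells, fell from 64.3, 65.4 and 70.6 CPM to 0.402, 0.16 and 0.417 CPM (-7.64 ± 0.14), and it passed the filter only through TMG libraries. The mast cell genes Cpa3 and Ms4a2 gave counts in the same direction, with Cpa3 at 484 and 2 and Ms4a2 at 548 and 5 over the 3 libraries of each group, but neither passed the filter. Among the megakaryocyte markers, Gp9 went the other way, from 80 to 442 counts, and Itga2b had 390 and 379 counts. The granulocyte marker Csf3r had 1 and 10 counts. The part of such cells in the other results was not tested.

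Genes of the O-GlcNAc cycle were of interest because TMG blocks OGA in both groups. Ogt, whose product attaches the sugar (chromosome X, 101640011 to 101684351), rose from 351, 373 and 346 CPM to 540.4, 528 and 496 CPM (0.55 ± 0.05, adjusted p = 3.39e-07). Oga, listed as Mgea5 (chromosome 19, 45750255 to 45783644), rose from 292, 288 and 278 CPM to 441, 431 and 428 CPM (0.60 ± 0.04, adjusted p = 3.3e-08). Both rose by about 1.5 times with no overlap of the groups. Genes of the hexosamine pathway, which makes the sugar donor, moved both ways. Gfpt1, which opens the hexosamine pathway, fell from 399, 374 and 376 CPM to 96.8, 95.2 and 86.3 CPM (-2.04 ± 0.05), and Gnpnat1 (-1.03), Uap1 (-0.77) and Pgm3 (-0.72) fell. Uap1l1, a relative of Uap1, rose from 19.6, 20.5 and 19.8 CPM to 49.3, 59.5 and 60.6 CPM (adjusted p = 1.8e-09). Gnpda1, which runs the entry reaction backwards, rose from 42.4, 43.7 and 43.2 CPM to 168, 170.3 and 176 CPM (1.99 ± 0.05), and Amdhd2 rose by 1.26 ± 0.12. Amdhd2 passed the filter only through TMG_E2 libraries and Gnpnat1 only through TMG libraries, which largely set their direction. Over the 10 tested genes of this list, 5 rose (50.0%) and 4 fell (40.0%), shares near those of all genes. Of 10 genes for known OGT partners 4 rose and 3 fell, also near the background, with Hcfc1 at -0.01 ± 0.06 (adjusted p = 0.929) and Tet2 at 0.02 ± 0.08 (adjusted p = 0.852).

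The NuRD complex, a repressor assembly that binds GATA-1 through FOG-1, had 10 of 14 subunit genes lower (71.4%) and 1 higher, with a median of -0.40. The remodeler Chd3 fell from 77.1, 75.1 and 78.4 CPM to 23, 21.2 and 19.9 CPM (-1.84 ± 0.06). Its relative Chd4 (-0.82), the histone chaperone Rbbp7 (-1.07) and the deacetylase Hdac1 (-0.89) fell. Mbd2 rose (0.57 ± 0.04) while Mbd3, which replaces it in the complex, fell (-0.49 ± 0.06).

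Cell cycle lists differed in their counts. Of 14 tested genes for cell cycle inhibitors 12 rose (85.7%) and 1 fell, with a median of 0.98. Btg2, an antiproliferative gene, rose from 0.848, 0.76 and 0.666 CPM to 107, 113 and 109 CPM (7.15 ± 0.09), passing the filter only through TMG_E2 libraries. The CDK inhibitors Cdkn1b, Cdkn1a and Cdkn2c rose by 1.46 ± 0.08, 1.16 ± 0.06 and 0.64 ± 0.06, and the growth arrest gene Gadd45a by 2.16 ± 0.08. Ccng2 ranged widely within both groups, at 5.94, 15.4 and 10.9 CPM without and 26.5, 54.2 and 44.4 CPM with E2, and replicate 1 was the lowest in each. Of 15 genes for G1 cyclins, their kinases and E2F factors, 4 rose and 9 fell (60.0%). Ccnd3, the cyclin D of red cell precursors, rose from 205, 216 and 209 CPM to 1010, 1066 and 1030 CPM (2.30 ± 0.05), whereas Cdk6 (-1.11), Cdk4 (-0.74) and Ccnd2 (-0.90) fell. Genes of mitosis rose in 16 of 23 cases (69.6%) and fell in 4, with a median of 0.42 and with Ccna2 (1.09 ± 0.04) and Ccnb2 (1.04 ± 0.06) highest. DNA replication had 13 of 30 higher (43.3%) and 9 lower (30.0%), which is near the background, with the origin licensing gene Cdc6 highest (1.52 ± 0.05).

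Most genes of organelle clearance and terminal maturation rose. Of 25 autophagy genes 20 rose (80.0%) and 2 fell, with a median of 0.77, among them the ubiquitin-like modifiers Gabarap (1.79 ± 0.06) and Map1lc3b (1.34 ± 0.05) and the protease Atg4d, from 26.6, 27.9 and 29.2 CPM to 111, 122 and 121 CPM (2.08 ± 0.06). Of the 25 autophagy genes, 1 passed the filter only through TMG_E2 libraries. Of 20 lysosome genes 16 rose (80.0%) and 2 fell, with a median of 0.84, and 2 of the 20 passed the filter only through TMG_E2 libraries. The filter largely set the direction of those genes. Ctsb, which encodes the protease cathepsin B, rose from 77.9, 73.4 and 76.7 CPM to 595, 615 and 629.7 CPM (3.01 ± 0.05). Tfeb, a factor that switches on lysosome genes, was among the 2 that fell, from 19.8, 21.6 and 22.4 CPM to 6.47, 6.95 and 7.32 CPM (-1.62 ± 0.09), and it passed the filter only through TMG libraries. Of 17 terminal maturation genes 14 rose (82.4%) and 3 fell, with a median of 1.06. The ubiquitin enzyme Ube2l6 rose by 3.53 ± 0.07, the TRIM protein Trim10 by 2.93 ± 0.07 and Bnip3l, a receptor for clearing mitochondria counted here with apoptosis genes, by 0.76 ± 0.05. Car1, a carbonic anhydrase abundant in mature red cells, was against its list, at 96.5, 90.8 and 88.6 CPM without and 0.803, 0.908 and 1.31 CPM with E2 (-6.54 ± 0.11), while Car2 rose by 1.07 ± 0.05. Car1 passed the filter only through TMG libraries.

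**Figure D4:**
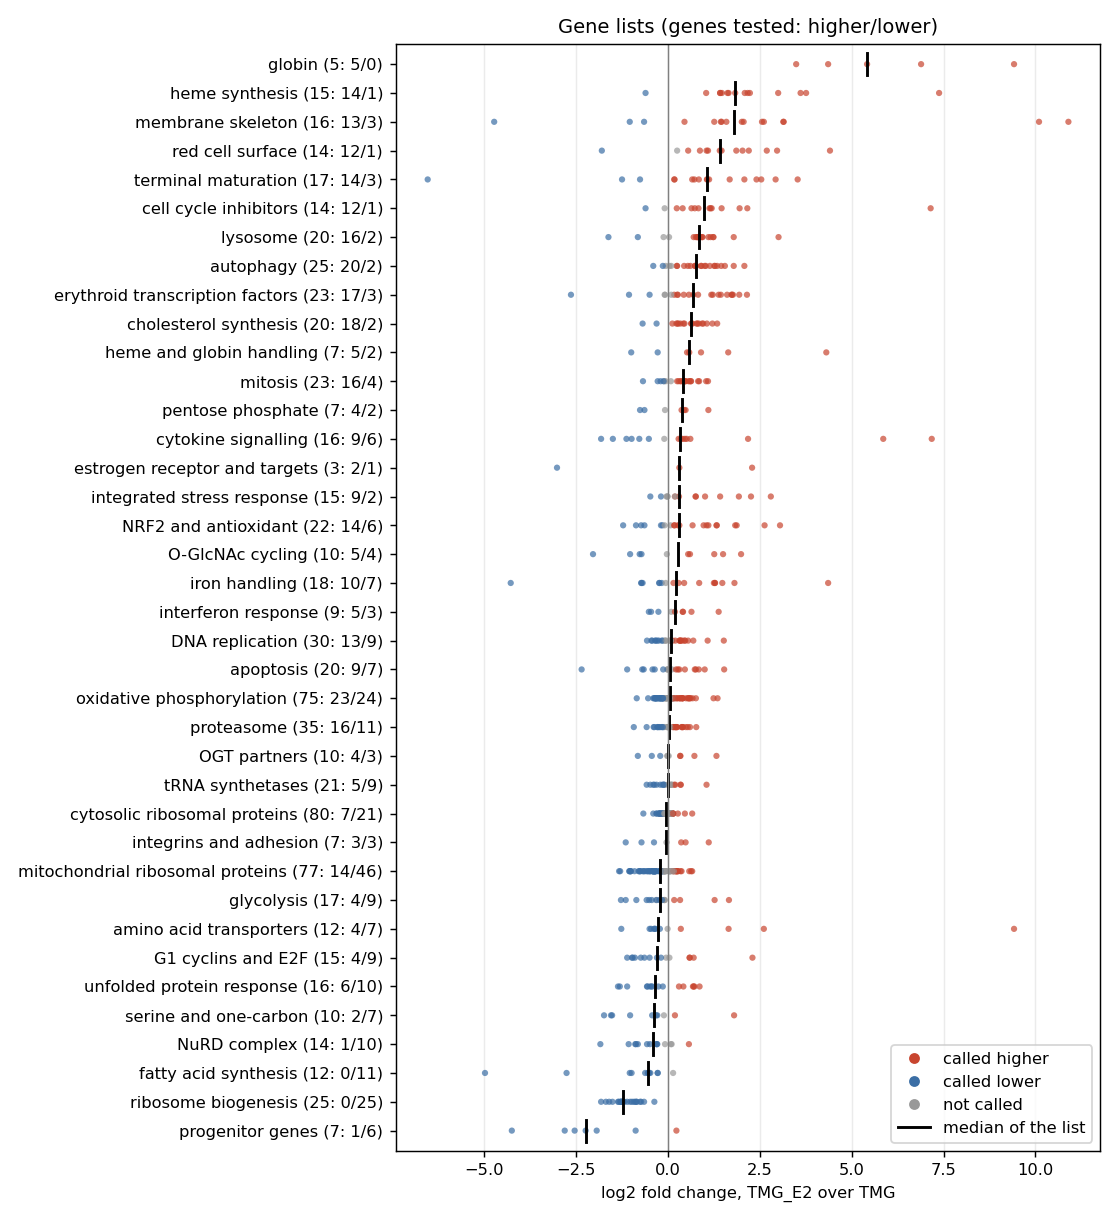
Log2 fold change of TMG_E2 over TMG (horizontal axis) for each tested gene of 38 lists (rows, ordered by their median, with genes tested and genes called higher and lower in brackets), with called genes in red and blue, uncalled genes in grey and a bar at the median. Globin, heme and membrane lists sit to the right of 0, ribosome biogenesis and progenitor genes to the left, and most lists spread over both sides.

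Survival and cytokine genes changed one by one. Bcl2l1, the survival gene of red cell precursors that encodes BCL-XL, rose from 28.5, 24.8 and 27 CPM to 77.1, 72.9 and 81.9 CPM (1.53 ± 0.07). Bid, a trigger of mitochondrial death, fell (-1.11). Of 20 apoptosis genes 9 rose and 7 fell (35.0%), which is near the background. The receptor subunits Csf2rb and Csf2rb2 rose by 5.86 ± 0.14 and 7.18 ± 0.16, from 17.8, 20.2 and 29.7 CPM to 1351, 1210 and 1352 CPM for the former. These neighbouring genes on chromosome 15 are near copies, so reads may have been shared between them, and Csf2rb2 passed the filter only through TMG_E2 libraries. Epor, the erythropoietin receptor, rose by 0.51 ± 0.05 and the kinase Pim1 by 2.18 ± 0.05, while Stat5a fell from 195, 184 and 202 CPM to 50.6, 55.7 and 58 CPM (-1.82 ± 0.06) and its close relative Stat5b rose (0.35 ± 0.05).

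Genes for ribosome production fell. All 25 ribosome biogenesis genes, all of them tested, were lower (100%, against 40.0% of all genes), 16 of them by 2-fold or more, with changes from -1.82 to -0.37 and a median of -1.22. The count was 25 under each of the 13 alternatives. Polr1b, a subunit of RNA polymerase I, fell from 152, 138 and 153 CPM to 42.8, 39.6 and 42.6 CPM (-1.82 ± 0.06), and Nop2, an rRNA methyltransferase, from 239, 228 and 241 CPM to 72.8, 71.5 and 74.7 CPM (-1.69 ± 0.05). The abundant nucleolar proteins Ncl (-1.30) and Npm1 (-1.24) fell. The ribosomal proteins themselves did not follow: of 80 genes 7 were higher and 21 lower, 52 were not called, and the median was -0.04. That count rested on the scaling and on single libraries, with 2 to 14 higher and 12 to 45 lower over the alternatives. Genes of mitochondrial ribosomal proteins fell in 46 of 77 cases (59.7%) and rose in 14, with a median of -0.22 and Mrpl12 lowest (-1.33 ± 0.06). Oxidative phosphorylation (23 of 75 higher, 24 lower), the proteasome (16 of 35 and 11) and tRNA synthetases (5 of 21 and 9) had medians of 0.05, 0.03 and -0.01.

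The lipid lists had opposite medians. Of 20 tested genes for cholesterol synthesis and its control 18 rose and 2 fell (10.0%), with a median of 0.63. Idi1, which makes the isoprenoid unit, rose from 550.2, 548 and 550.3 CPM to 1476, 1271 and 1423 CPM (1.34 ± 0.06), Mvk by 1.21 ± 0.06 and the regulator Srebf2 by 0.80 ± 0.05. The late enzyme Dhcr7 fell (-0.69 ± 0.06). Of 12 genes for fatty acid synthesis 0 rose and 11 fell (91.7%), with a median of -0.54. Scd1, the main desaturase, fell from 83.4, 55 and 58.6 CPM to 2.63, 1.44 and 2.08 CPM (-4.98 ± 0.21), and the elongase Elovl6 from 99.7, 95.5 and 102 CPM to 15.8, 13.4 and 14.6 CPM (-2.76 ± 0.07). Scd1 passed the filter only through TMG libraries. In glycolysis, where 4 of 17 genes rose and 9 fell, the red cell pyruvate kinase gene Pklr rose by 1.66 ± 0.05 and Pkm, the form of other tissues, fell (-0.86). Serine and one-carbon genes fell in 7 of 10 cases (70.0%), with Mthfd1 from 788, 755 and 799 CPM to 233, 222 and 245 CPM (-1.74 ± 0.05). Slc38a5, an amino acid transporter, had 1 count in the 3 TMG libraries together and 923 in the TMG_E2 libraries. With TMM-scaled library sizes this was 941 times as many (95% limits 168 and 37207, from counting error alone). Slc38a5 passed the filter only through TMG_E2 libraries, which largely set its direction, and it was named as 1 of the 10 highest changes.

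Stress genes of the integrated stress response rose in 9 of 15 cases (60.0%) and fell in 2, with a median of 0.30. Eif2ak1, the heme-sensing kinase HRI, rose from 112, 104 and 101 CPM to 405, 404 and 399.8 CPM (1.93 ± 0.05). The phosphatase subunits that oppose it, Ppp1r15a and Ppp1r15b, rose by 2.80 ± 0.09 and 1.42 ± 0.05, and Ddit3 by 2.26 ± 0.15, whereas the target gene Asns stood at -0.02 ± 0.05 (adjusted p = 0.664). Of 16 genes of the unfolded protein response 6 rose and 10 fell (62.5%): the sensors Ern1 (0.86 ± 0.07) and Atf6 (0.72 ± 0.06) were higher, and the chaperones Pdia4 (-1.36 ± 0.06) and Calr (-1.31 ± 0.05) lower. Antioxidant genes rose in 14 of 22 cases (63.6%) and fell in 6 (27.3%). Among those that rose were Srxn1 at 2.63 ± 0.05, Prdx2, a major red cell peroxidase, at 1.83 ± 0.06 and Cat at 1.32 ± 0.04, while the peroxidase Prdx4 (-1.22 ± 0.07), the mitochondrial dismutase Sod2 (-0.87 ± 0.05) and thioredoxin, Txn1 (-0.73 ± 0.05), fell. Bach1, a repressor that heme inactivates, rose from 18.8, 19.6 and 19 CPM to 156, 171 and 149.8 CPM (3.05 ± 0.06). Of 11 estrogen receptor genes and targets, 3 were tested. Esr1 rose from 7.96, 6.94 and 7.44 CPM to 35.7, 38.5 and 35.1 CPM (2.29 ± 0.08), where reads of the receptor part of the fusion may be included, Nrip1 rose by 0.31 ± 0.08 and Rara fell (-3.02 ± 0.13), and the targets Greb1, Pgr and Tff1 did not reach the filter. Esr1 passed only through TMG_E2 libraries and Rara only through TMG libraries.

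Beyond the lists, the largest changes were in genes of several kinds. Tmem184a had 2 counts in the 3 TMG libraries and 2617 in the TMG_E2 libraries. With TMM-scaled library sizes this was 1334 times as many (95% limits 369 and 11021, from counting error alone). Btn1a1, a butyrophilin, rose from 0.612, 0.861 and 0.888 CPM to 155, 154 and 153 CPM (7.61 ± 0.09), and Rragd, a small GTPase that controls mTORC1 at the lysosome, from 0.707, 0.963 and 0.666 CPM to 89.4, 96.8 and 101 CPM (6.93 ± 0.11). Plxna3, a semaphorin receptor, fell the furthest, from 35.2, 35.2 and 34.6 CPM to 0.178, 0.0534 and 0.179 CPM (-7.92 ± 0.16), which is at about the level of 3 counts. Vim, an intermediate filament gene, went from 30, 32.8 and 42.7 CPM to 0.625, 0.588 and 1.07 CPM (-5.55 ± 0.20). Sept9, a septin (-4.86), Sall2 (-5.40), Fgf15 (-5.27), Ces2g (-5.01) and Plp2 (-4.81) fell as well. All of these genes passed the filter through 1 group only, the groups did not overlap, and the rule for naming them asked for the largest changes, so their sizes are the extremes of the data.

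The response was then compared with that of cells that received E2 without TMG, in a fit of all 12 libraries over 8273 genes. The 2 comparisons share no libraries. Over the 8174 genes tested here, the log2 changes had a Pearson r of 0.99 and a Spearman rho of 0.987 across genes, given as a description, since genes are not independent replicates. E2 without TMG raised 3432 genes (41.5%) and lowered 3406 (41.2%). The genes called in both comparisons numbered 6356 in the same direction and 7 in opposite directions, and the median absolute change was 0.43 with TMG and 0.41 without it. A test of the difference itself, the interaction of E2 and TMG, called 77 genes (0.931% of those tested), of which 22 (0.266%) had a higher and 55 (0.665%) a lower log2 response under TMG, and 914 had an unadjusted p under 0.05. The count was sensitive: with the replicate number as a block it was 57 higher and 114 lower, with DESeq2 37 and 62, without TMG_E2 replicate 3 52 and 109, and without Ctrl replicate 3 4 and 14. In 7 of the 77 genes the difference was 1 or more on the log2 scale.

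**Figure D5:**
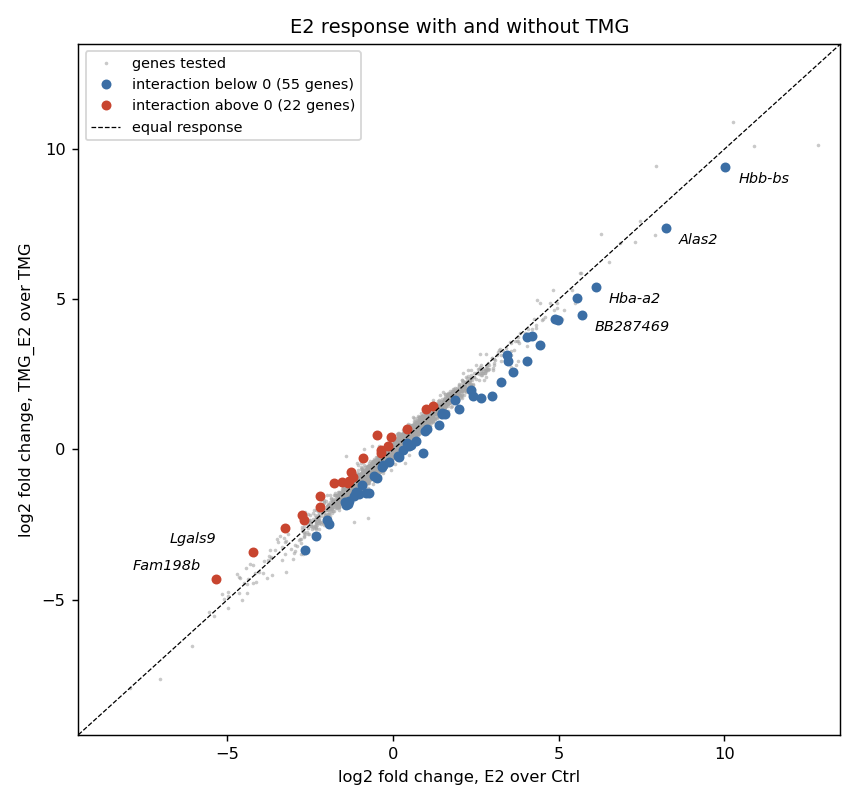
Log2 fold change of TMG_E2 over TMG (vertical axis) against that of E2 over Ctrl (horizontal axis), both from the fit of 12 libraries, for the 8174 genes tested (grey), with genes called for the interaction in blue (55 below 0) and red (22 above 0). Nearly all points follow the dashed line of equal response, and Hbb-bs, Alas2 and Hba-a2 lie a little under it.

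Of the 77 genes, 47 responded less under TMG, 31 of them genes that rose and 16 that fell, 23 responded more, and 7 had opposite signs. Signs were read from the fitted changes, whether or not each was called. These 7 are not the same set as the 7 called in opposite directions. Some erythroid genes were among those that rose less on the log2 scale. Called in either direction were 3 of 5 tested globin genes and 2 of 15 heme synthesis genes, against 0.931% of all genes. The membrane skeleton list had 2 of 16 and the red cell surface list 1 of 14. Among 23 erythroid transcription factors, 18 iron handling genes and 17 terminal maturation genes, 0 were called. In replicate order, Hba-a2 stood at 236, 213 and 232 CPM in Ctrl, 375, 407 and 417 CPM in TMG, 15713, 16383 and 15443 CPM in E2 and 14238, 17841 and 18910 CPM in TMG_E2, so the groups with E2 overlapped and those without E2 did not (interaction -0.71 ± 0.11, adjusted p = 0.00536). Alas2 stood at 1.7, 2.26 and 2.53 CPM in Ctrl, 4.22, 5 and 3.92 CPM in TMG, 638, 671 and 661 CPM in E2 and 717, 719 and 745 CPM in TMG_E2 (-0.86 ± 0.15, adjusted p = 0.00986). Kel stood at 22.7, 22.5 and 21.8 CPM in Ctrl, 36.9, 33.5 and 32.9 CPM in TMG, 262, 245 and 233 CPM in E2 and 286, 262 and 257 CPM in TMG_E2 (-0.50 ± 0.08, adjusted p = 0.00918). As log2 ratios, not in CPM, the difference between libraries with and without TMG was larger in the cells that had no E2. The ratios without and with E2 were 0.82 and 0.10 for Hba-a2, 1.02 and 0.15 for Alas2, and 0.62 and 0.12 for Kel. On the log2 scale the same was so in 26 of the 31 genes that rose less under TMG. In the 20 genes that fell more under TMG, the larger log2 difference lay in the cells given E2. These counts describe genes picked by the interaction itself and are no test. Of the other erythroid genes, Hbb-bs (-0.62 ± 0.12), Hbq1b (-0.95 ± 0.19), Sptb (-0.32 ± 0.06) and Abcb10 (-0.28 ± 0.06) were called lower for the interaction and Add2 higher (0.25 ± 0.06). The calls of Hba-a2 and Kel held under all 18 alternatives, that of Alas2 under 17, and those of Hbb-bs, Hbq1b, Sptb, Abcb10 and Add2 under 13, 10, 10, 5 and 5.

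Gata1 and Klf1 had interaction values of -0.13 ± 0.06 and -0.18 ± 0.08 (adjusted p = 0.399 and 0.361), Gata2 of 0.40 ± 0.10 (0.0612), and Ogt and Oga of 0.05 each (0.869 and 0.822). A p above the threshold does not show that the responses were alike. The lowest interaction values belonged to BB287469 (-1.21 ± 0.15) and Gm2016 (-1.21 ± 0.25), which with Gm8300 and Gm5662 lie between 87514316 and 88274497 on chromosome 12, and reads of these similar genes may have been shared. BB287469 stood at 6.77, 6.09 and 5.87 CPM in Ctrl, 15.8, 16.9 and 15 CPM in TMG, 348, 306 and 309.7 CPM in E2 and 398, 318 and 342 CPM in TMG_E2. Asic4, an ion channel gene, had a log2 change of 0.91 with E2 alone and -0.11 under TMG. The change under TMG was not called in edgeR's test of the 6 libraries (-0.10, adjusted p = 0.398), where the groups overlapped. The highest value was that of Fam198b (1.05 ± 0.21), whose log2 change was -5.36 without TMG and -4.31 with it. Fam198b was low with E2, at 1.46, 0.748 and 0.809 CPM in E2 and 1.84, 1.76 and 1.74 CPM in TMG_E2. In the 6 libraries it passed the filter only through TMG libraries. The calls of Fam198b and Gm2016 held under 8 and 9 of the 18 alternatives. Lgals9, which encodes galectin-9, stood at 214, 209 and 235 CPM in Ctrl, 157, 135 and 166 CPM in TMG, 12.2, 10.1 and 12.9 CPM in E2 and 16.6, 12.1 and 14.4 CPM in TMG_E2 (0.83 ± 0.15).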

How the data were processed

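RNA of G1E-ER4 cells was sequenced as paired-end reads from stranded mRNA libraries, per the labels. The deposited files give, per the file headers, expected counts and TPM for each gene. The authors estimated these with RSEM 1.2.22 on GRCm38, checked reads with FastQC 0.11.2 and tested with EdgeR 3.14.0 under R 3.2.2, per the submitters' processing notes and design text. How the counting treated strand is not stated in what was used here; overlapping genes such as Il1b and Il1bos are therefore uncertain, as are close copies (globins, Csf2rb and Csf2rb2, and 4 genes on chromosome 12). Expected counts were rounded. Genes with CPM over 10 in at least 2 libraries were tested with edgeR 4.0.16 (R 4.3.3): TMM scaling, quasi-likelihood test, Benjamini-Hochberg adjustment, threshold 0.05. SE is the log2 fold change divided by the root of the F statistic. The interaction used all 12 libraries. The fits were also run on simulated data in which most genes did not change. Most genes tested here did change, so that run cannot test the scaling in this setting.

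Libraries held 17589370 to 23178705 counts. Intervals cover counting error only. Same-numbered TMG and TMG_E2 libraries had deviations that correlated at 0.53, 0.149 and 0.415. For that reason the replicate number was used as a block, but only among the alternatives. The main fits, that of the interaction included, did not pair libraries. Grounds for pairing came from the data alone, as nothing in the labels ties same-numbered libraries to a common day. Alternatives were other scalings, filters, DESeq2 1.42.0, a 12-library fit, a replicate block and leaving out each library.

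The members and gene lists were chosen with earlier results of these data known. Named genes were 5 fixed genes, the 10 highest and 10 lowest changes without overlap, up to 3 called genes a direction in each list, all tested members of 8 lists, the 8 highest and 8 lowest interaction values, genes named by these rules that were also called for the interaction, 5 genes a side with 0 counts in 1 group, the 5 with the most spread, the 10 with the highest TPM a group, and the markers. Asns, Bnip3l, Car2, Cat, Ccnd2, Cdk4, Cdkn1a, Cdkn1b, Cdkn2c, Chd4, Epor, Hcfc1, Jun, Map1lc3b, Mbd3, Ncl, Npm1, Ppp1r15b, Prdx2, Srebf2, Stat5b and Tet2 fall outside this rule and were chosen after their values were seen. Some listed genes are not reported here by name, though they remain in the counts and medians. Promoter sequences are from RefSeq (GRCm38.p6).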

Additional observations from a re-analysis of the deposited data

Results flagged for a closer look

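The E2 response with TMG was tested against that without TMG by the interaction in the 12-library fit (edgeR, Benjamini-Hochberg adjustment, threshold 0.05), and the results below are those where the responses differed by that test. Genes with a higher log2 response under TMG numbered 22, and genes with a lower one 55. The lowest interaction values (log2) belonged to BB287469 (-1.21), Gm2016 (-1.21), Il1b (-1.09), Gm8300 (-1.03), Asic4 (-1.02), Gm5662 (-1.01), Hbq1b (-0.95) and Il1bos (-0.93). Other genes below 0 were Alas2 (-0.86), Hba-a2 (-0.71), Hbb-bs (-0.62), Kel (-0.50), Sptb (-0.32) and Abcb10 (-0.28). Genes above 0 were Add2 (0.25), Rap1gap2 (0.57), Slc7a8 (0.61), Mylk3 (0.62), Ephx2 (0.67), Aim1 (0.67), Lgals9 (0.83), Fermt3 (0.96) and Fam198b (1.05). Of these 23 genes, 7 were called under all 18 alternatives (Aim1, Asic4, BB287469, Hba-a2, Il1bos, Kel and Slc7a8), and Il1b under the fewest, 4.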

How the results depend on the processing

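Of the genes called for TMG_E2 against TMG and again under an alternative, 0 changed sign under the 13 alternatives. With the replicate number as a block, 3369 genes were higher and 3370 lower. At 2-fold or more, 1254 were higher and 1490 lower with no filter, and 1240 lower with edgeR's own filter. For the interaction, no filter gave 71 higher and 107 lower genes, edgeR's filter 33 lower, DESeq2 37 higher and the replicate block 57 higher and 114 lower. Leaving out 1 library gave 2 to 52 higher and 14 to 109 lower, both highest without TMG_E2 replicate 3. The cause of these shifts was not tested. Over 308 named genes and 4000 values, 24 values lost and 25 gained a call, and 6 turned sign, all in genes not called in the first place: Ikzf1 was -0.01 with library size scaling, Vegfa ranged from -0.26 to 0.23 (0.06 without TMG replicate 2, 0.08 without TMG replicate 3) and Rpl41 from -0.10 to 0.06 (0.01 without TMG replicate 3) when 1 library was left out. Of 988 list counts, 31 moved by more than 1.5 times. Levels under 0.129 to 0.171 CPM rest on fewer than 3 counts.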

Other observations

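Some genes had no counts in any library of 1 group, and none of them passed the filter. Hba-x, an embryonic alpha-like globin gene, had 0 counts in the TMG libraries and 163, 146 and 146 in the TMG_E2 libraries. Tubb1, a tubulin gene of the megakaryocyte lineage, had 0 and then 151, 86 and 104 counts, and Cd22 had 0 and then 39, 30 and 23. In the other direction, Ppp1r17 had 176, 134 and 148 counts in the TMG libraries and 0 with E2, and Ptrf had 33, 35 and 25 and then 0. AU042671 had counts in only 1 TMG_E2 library, 168 in replicate 3.

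Among genes with a mean of at least 50 CPM, the 5 that varied most between TMG_E2 libraries included Vegfa, at 51.5, 86.1 and 87.2 CPM without E2 and 44, 90 and 85.2 CPM with it. Hk2, a hexokinase gene, was at 113, 133 and 132 CPM without and 73.8, 124 and 110.0 CPM with E2. Hk2 was lower with E2 in each of the 3 same-numbered pairs. The main edgeR fit did not call it (-0.30, adjusted p = 0.0626). With the replicate number as a block edgeR called it (-0.32, adjusted p = 4.08e-05). It was also called with library size scaling (0.0159), with no filter (0.00275), without TMG replicate 1 (0.0364) and without TMG_E2 replicate 2 (0.00944). In Vegfa and Hk2 replicate 1 was the lowest library of each group.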
